A study of Mus musculus with 2 samples.

Results

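Adipogenic transcription factors that are not nuclear receptors were examined in mouse subcutaneous fat. The 10 genes were chosen by symbol out of 43346 annotated genes: the C/EBP factors Cebpa, Cebpb, Cebpd and Cebpg, the Krüppel-like factors Klf4, Klf5 and Klf15, and Ebf1, Zfp423 and Stat5a. All 10 were found in the gene tables of both libraries. The series holds 1 group of 2 polyA RNA libraries, labelled biological replicates 1 and 2, so it has no comparison between conditions. Per the labels, the tissue was a subcutaneous fat pad of adult C57BL/6J mice, littermates of 8 weeks pooled over males and females, with health state unknown. The RNA, longer than 200 nt, had its ribosomal part removed and its polyA fraction kept, and spike-in RNA went in; the libraries kept strand and were read as pairs of 76 nt. Each library has a tissue record of its own, and both tissue records point to 1 donor record. The labels do not name the animals in either pool, so the spread between the libraries may be biological or technical. Levels are given in TPM, a relative transcript abundance that divides reads by transcript length and can be compared between genes.

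White adipocytes arise from fibroblast-like precursors through a cascade of transcription factors. ZFP423 and EBF1 act in committed precursors, C/EBPβ, C/EBPδ, KLF4, KLF5 and STAT5A act in the hours and days after the hormonal stimulus, and C/EBPα, together with the nuclear receptor PPARγ, holds the mature state. KLF15 acts late and is linked to glucose uptake and amino acid use. C/EBP proteins are basic leucine zipper factors that bind DNA as dimers, Krüppel-like factors bind GC-rich and CACCC elements through zinc fingers, and STAT5A is a latent cytoplasmic factor that JAK kinases activate below the growth hormone, prolactin and cytokine receptors.

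The libraries differed in the cell types whose markers they held. Replicate 1 had a total of 54752739 estimated counts, and replicate 2 had 58687668. White adipocyte markers were present in both: all 9 of a list led by Fabp4, Cidec and Adipoq reached 1 TPM, and their summed level was 6564 TPM in replicate 1 and 21564 TPM in replicate 2. Markers of smooth muscle, glandular epithelium and uterus were higher in replicate 1 than in replicate 2. Smooth muscle markers, led by Acta2, Tagln and Cnn1, summed to 5420 and 657 TPM, and all 7 of 7 were over 2-fold higher in replicate 1. Glandular epithelium markers, led by Krt19, Krt8 and Cldn3, summed to 734 and 13.8 TPM, and 8 of 8 compared were over 2-fold higher in replicate 1, with the milk genes Csn2 and Wap at 0 in both. Uterus markers, led by Hoxa10, Msx1 and Hoxa11, summed to 621 and 19.8 TPM, again with 9 of 9 over 2-fold higher in replicate 1. Cell division genes summed to 91.8 and 11.4 TPM. Progenitor and fibroblast markers (2841 and 1523 TPM) and macrophage markers (1201 and 871 TPM) differed less, endothelial markers were at 704 and 1190 TPM, and brown and beige adipocyte markers at 409 and 907 TPM. Of these 6 brown and beige genes, 4 were called higher in replicate 2 and 1 in replicate 1, Dio2 (69.2 and 0.78 TPM). T cell (39.3 and 6.82 TPM), neutrophil (153 and 15.6 TPM), skeletal muscle (212 and 116 TPM), epidermis (22.4 and 33.3 TPM) and B cell (93.1 and 880 TPM) lists were also summed. Tcf7 (23.5 and 1.32 TPM) and Retnlg (106 and 2.74 TPM) had the highest mean of the T cell and neutrophil lists. Acta1 (203 and 115 TPM), Sbsn (17.8 and 31.3 TPM) and Ighm (85.6 and 867 TPM) led the others. Some genes of these lists were low, among them Cd3e (0.74 and 0.93 TPM), Ly6g (1.68 and 0 TPM) and Myh4 (0 in both). The sums alone do not show that each cell type was present. Genes of the mitochondrial genome took 6.58% of TPM in replicate 1 and 15.8% in replicate 2, which bears on each TPM set side by side between the libraries. Values of both libraries are therefore given side by side throughout, each standing for the result without the other library. In bulk tissue, fewer cells of a type and less RNA per cell cannot be told apart.

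Promoter sequences were read for the members whose start sites bear on the results. RefSeq windows (GRCm38.p6) were matched for 8 of the 10 genes, not for Cebpd and Klf5. The 250 bases before the annotated start are shown for Cebpa and Cebpb, the pair of C/EBP members whose ratio differed most between the libraries, and for 2 starts of Zfp423 whose transcripts differed in use. Capitals mark TATAAA in the Cebpa window, the cyclic AMP response core TGACG in the Cebpb window and the C/EBP-like pattern TTNCNNAA in both Zfp423 windows, each searched on both strands.
Cebpa, chr7:35119043-35119292, + strand: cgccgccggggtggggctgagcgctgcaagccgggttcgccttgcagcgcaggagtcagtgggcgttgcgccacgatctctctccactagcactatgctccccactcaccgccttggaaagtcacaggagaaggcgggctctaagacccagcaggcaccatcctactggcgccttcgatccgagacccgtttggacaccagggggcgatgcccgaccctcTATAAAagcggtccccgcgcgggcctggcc
Cebpb, chr2:167688665-167688914, + strand: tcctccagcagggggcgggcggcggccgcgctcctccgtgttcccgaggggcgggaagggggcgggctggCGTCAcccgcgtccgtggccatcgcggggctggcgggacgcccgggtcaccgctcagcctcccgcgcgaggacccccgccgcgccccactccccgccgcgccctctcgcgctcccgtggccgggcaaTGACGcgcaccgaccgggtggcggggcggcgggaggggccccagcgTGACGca
Zfp423 upstream start, chr8:87959596-87959845, - strand: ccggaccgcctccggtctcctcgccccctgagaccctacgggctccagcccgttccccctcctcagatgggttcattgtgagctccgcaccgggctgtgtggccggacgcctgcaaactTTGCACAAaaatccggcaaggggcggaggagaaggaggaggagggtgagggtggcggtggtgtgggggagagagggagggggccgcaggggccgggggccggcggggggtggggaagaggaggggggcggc
Zfp423 internal start, chr8:87804440-87804689, - strand: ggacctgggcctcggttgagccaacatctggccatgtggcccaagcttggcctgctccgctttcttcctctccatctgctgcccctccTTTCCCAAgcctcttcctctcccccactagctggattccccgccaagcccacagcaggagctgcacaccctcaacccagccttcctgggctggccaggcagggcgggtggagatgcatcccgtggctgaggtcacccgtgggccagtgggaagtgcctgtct
No annotated exon overlaps these windows. The Cebpa window held TATAAA once, with its first base at position -30 from the start, and no TGACG. The Cebpb window held TGACG 3 times, with first bases at -180, -53 and -7, and no TATAAA. The windows of Klf4 (at -232) and Klf15 (at -78 and -6), which are not shown, held TGACG too. Cyclic AMP signalling through CREB is a known inducer of Cebpb, and of 32851 RefSeq windows cut the same way 17.8% held TGACG and 12.4% held TATAAA. Each Zfp423 window held 1 C/EBP-like match, at -131 and -162, a pattern found in 36.8% of all windows. The GC content was 66.4% for Cebpa and 81.6% for Cebpb. A match describes letters and is no evidence of binding.

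The members spanned a wide range of levels. Cebpa was highest, at 207 TPM in replicate 1 and 325 TPM in replicate 2 (266 ± 83.5, SD, n = 2), which placed it in the top 1.49% and 0.787% of annotated genes. Cebpb followed at 115 ± 31.3, then Klf15 at 65.3 ± 13.5, Ebf1 at 54.8 ± 22.7, Stat5a at 42.3 ± 6.35, Cebpd at 38.7 ± 6.94, Zfp423 at 38.0 ± 15.2, Klf4 at 36.5 ± 4.65, Cebpg at 9.18 ± 1.27 and Klf5 at 9.0 ± 11.9 TPM (SD, n = 2 for each). Neighbours in this order had separate ranges over the libraries only between Cebpa and Cebpb, between Cebpb and Klf15, and between Klf4 and Cebpg. From Klf15 down to Klf4 each neighbouring pair overlapped, and so did Cebpg and Klf5. At 1 TPM or more in both libraries stood 9 of the 10 genes, where 29.4% of all annotated genes did; Klf5 was the exception. Summed over the 10 genes, the level was 613 TPM in replicate 1 and 737 TPM in replicate 2.

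**Figure D1:**
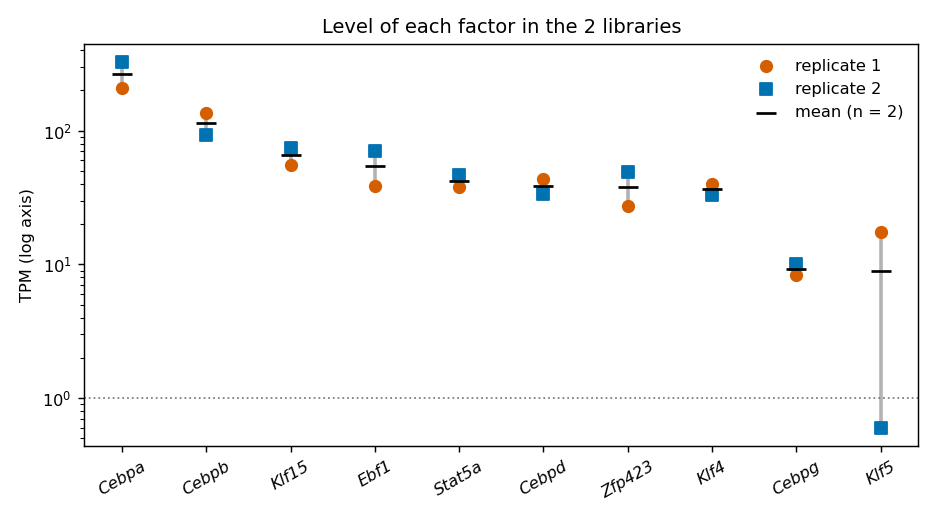
TPM of each factor (log axis) in replicate 1 (circles) and replicate 2 (squares), with the mean of the 2 libraries as a bar and a dotted line at 1 TPM. Cebpa stands highest in both libraries, and Klf5 lies at 17.4 TPM in replicate 1 and 0.60 TPM in replicate 2, a single point under the line.

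To compare the libraries with each other, counts were scaled with edgeR's TMM factors, and the ratio of replicate 2 to replicate 1 was given with an exact Clopper-Pearson 95% interval. The interval covers counting error only. With 1 library on each side no test was possible. Genes whose scaled counts averaged 100 or more, and whose interval lay wholly beyond 2-fold, are called over 2-fold apart. By this rule 3101 of 13403 genes, or 23.1%, were apart: 10.6% were higher in replicate 2 and 12.5% were higher in replicate 1. Of the members, 5 of 10 were apart, with 4 higher in replicate 2 (Cebpa, Klf15, Ebf1 and Zfp423) and 1 higher in replicate 1 (Klf5). Their median log2 ratio was 0.93, and that of all genes compared was 0.04.

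These 4 calls depended on the scaling. Scaling to total count or to the ERCC spike-in total moved each log2 ratio by -0.51 and -0.46. The median over all genes compared was then -0.48 and -0.42. Either scaling left 0 members called higher in replicate 2 and Klf5 still called higher in replicate 1. Over all genes compared, 4.4% were called higher in replicate 2 with total count and 4.88% with the spike-ins. In replicate 1, 22.3% and 20.9% were called higher. Over all genes, calls higher in replicate 1 made up 54.2% of the calls with TMM, 83.5% with total count and 81.1% with the spike-ins. Cebpa, Klf15, Ebf1, Zfp423, Stat5a and Cebpg were higher in replicate 2 under each scaling tried, and Klf5 was lower under each. These were TMM and DESeq2, which gave nearly the same ratios, total count, the spike-ins and unscaled TPM. Cebpb, Cebpd and Klf4 changed sign with the scaling. Ratios between members of 1 library are free of this choice and are given with each family.

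**Figure D2:**
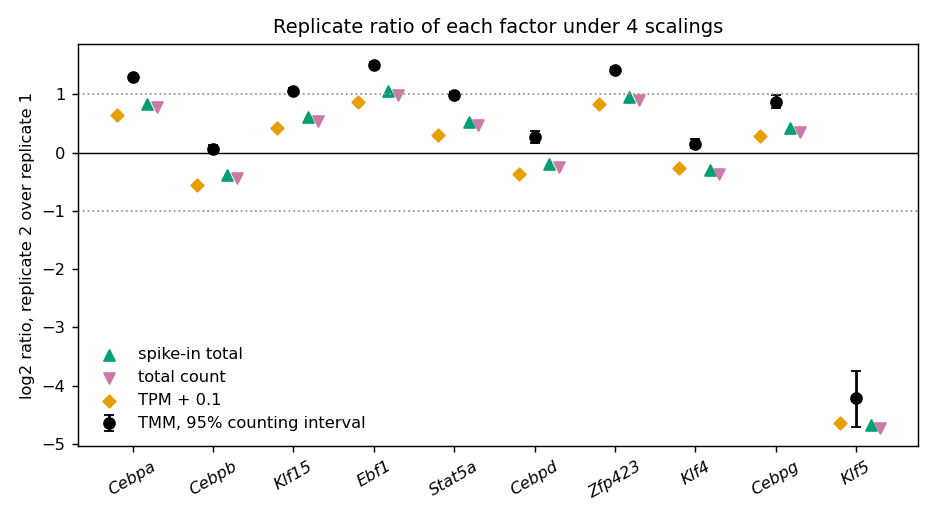
Log2 ratio of replicate 2 over replicate 1 for each factor with TMM scaling (black, with the 95% counting interval), spike-in scaling, total count scaling and unscaled TPM plus 0.1, with dotted lines at 2-fold. Ebf1 and Zfp423 lie highest with TMM (1.5 and 1.42), Klf5 lies near -4 or lower under all 4, and Cebpb, Cebpd and Klf4 lie on either side of 0.

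Among the C/EBP genes, Cebpb and Cebpd encode the factors induced early. Cebpb, a single-exon gene at chr2:167688915-167690418, was at 137 TPM in replicate 1 and 92.4 TPM in replicate 2, from 6631 and 5247 estimated counts. Cebpd (chr16:15887286-15891031) was at 43.7 and 33.8 TPM, from 1585 and 1436 counts. Both were lower in replicate 2 in TPM, and neither was apart after TMM scaling, with ratios of 1.05 (95% interval 1.02 to 1.09) and 1.21 (1.12 to 1.30). Cebpb was the more abundant of the pair in both libraries, 3.13-fold over Cebpd in replicate 1 and 2.73-fold in replicate 2. The deposited Cebpd model was 1180 bases long, against 3746 bases for the same transcript in GENCODE M21, so its TPM rests on the shorter model. Exons of Cebpb and Cebpd overlap the spans of Tmem189 (7096 and 10729 counts) and Spidr (444 and 312 counts) on the opposite strand. Whether they overlap exons of those genes was not examined. The libraries were stranded, but a strand setting of the counting is not given in any source used here.

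Cebpa (chr7:35119293-35121928), which encodes the factor that maintains the differentiated adipocyte, had 18845 counts in replicate 1 and 34690 in replicate 2. Replicate 2 was the higher library, with a scaled ratio of 2.45 (95% interval 2.41 to 2.50). Set against Cebpb in the same library, Cebpa was 1.51-fold as abundant in replicate 1 and 3.52-fold in replicate 2, a change of the count ratio by 2.33 (interval 2.23 to 2.42). Against Cebpd the values were 4.74 and 9.61. Cebpa therefore held 51.2% of the summed TPM of the 6 C/EBP genes in replicate 1 and 70.0% in replicate 2, while Cebpb held 33.8% and 19.9%. Pparg, the nuclear receptor that works with C/EBPα, was at 90.4 and 210 TPM and differed more, so that Cebpa over Pparg was 2.29 in replicate 1 and 1.55 in replicate 2. White adipocyte markers were higher in replicate 2 beside Cebpa, at 6564 and 21564 TPM in sum; their part in the Cebpa difference was not tested.

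Cebpg (chr7:35046422-35056573) lies near Cebpa, on the other strand, and encodes a short C/EBP protein that works mainly as a dimer partner. Its level was 8.29 TPM in replicate 1 and 10.1 TPM in replicate 2, from 1122 and 1545 counts. The libraries were close in TPM, and the scaled ratio of 1.83 (1.70 to 1.98) stayed within 2-fold. Cebpg held 2.05% and 2.17% of the C/EBP TPM, and kept its place as the fourth of the family in both. The other C/EBP genes were low: Cebpe, known from granulocytes, was at 4.47 and 0.64 TPM and Cebpz at 4.37 and 2.20 TPM. Of 8 other C/EBP and partner bZIP genes compared, 1 was called higher in replicate 2 and 0 in replicate 1. That gene was Trib3, a pseudokinase of the stress response, at 2.25 and 6.85 TPM. With total count or spike-in scaling 1 of 9 was higher in each library. The stress factors Atf4 (133 and 112 TPM) and Atf5 (111 and 128 TPM) were the most abundant of this list, ahead of Ddit3 (22.9 and 21.5 TPM).

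**Figure D3:**
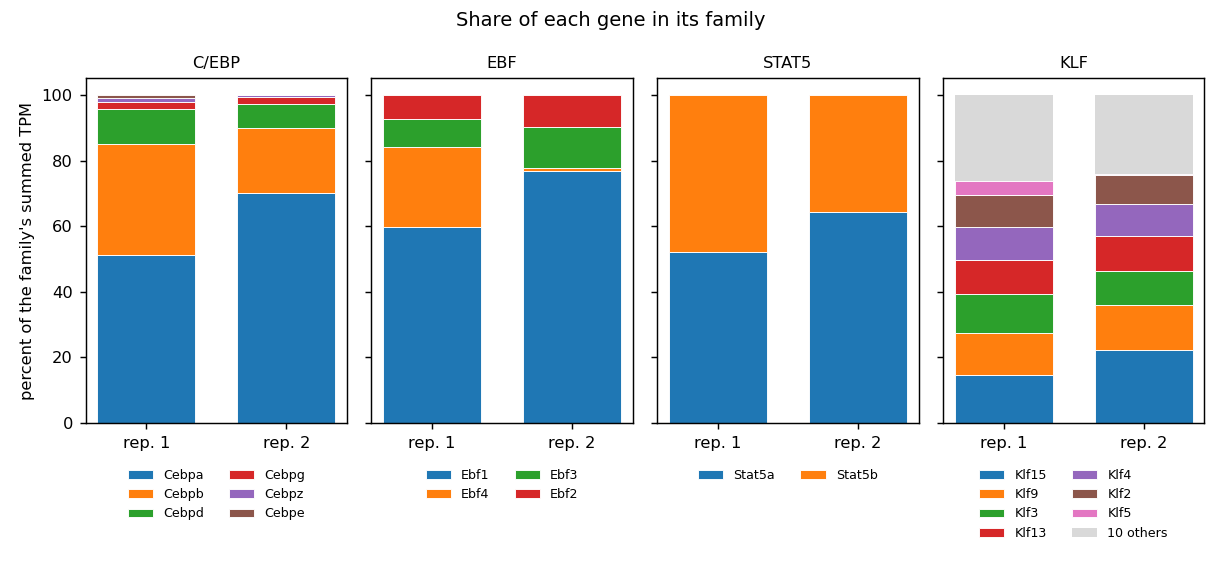
Share of each gene in the summed TPM of the C/EBP, EBF, STAT5 and Krüppel-like families, 1 stacked bar per library. Cebpa, Ebf1 and Stat5a hold the lowest segment of their bars and take a larger share in replicate 2 (70.0%, 76.8% and 64.2%), and Klf15 leads the Krüppel-like genes in both.

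Of the Krüppel-like members, Klf4 encodes an early factor that acts on Cebpb in cultured precursors. Klf4 (chr4:55527143-55532466) was at 39.8 TPM in replicate 1 and 33.2 TPM in replicate 2, from 3742 and 3133 counts. The libraries lay close, with a scaled ratio of 1.11 (1.06 to 1.17). Its rank was 5 of the 17 Krüppel-like genes in both libraries, with 10.3% and 9.90% of their TPM.

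Klf15 (chr6:90462576-90475238) was at 55.8 and 74.8 TPM, from 4530 and 7121 counts. Replicate 2 was the higher library, with a scaled ratio of 2.09 (2.02 to 2.17), the lowest of the 4 ratios called higher. It was the most abundant Krüppel-like gene in both libraries and held 14.5% and 22.3% of the family's TPM. Over Klf4, which stands earlier in the cascade, Klf15 was 1.40-fold in replicate 1 and 2.25-fold in replicate 2. Slc2a4, the insulin-responsive glucose transporter gene that KLF15 is known to act on, was at 168 and 251 TPM. It belongs to the white adipocyte list, where 9 of 9 genes were called higher in replicate 2. A part of KLF15 in the Slc2a4 difference was not tested.

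Klf5 (chr14:99298691-99315036) differed most of the members. In adipogenesis KLF5 acts after C/EBPβ and C/EBPδ and on Pparg, and the gene is also known from epithelia and from vascular smooth muscle. It was at 17.4 TPM in replicate 1 and 0.60 TPM in replicate 2, from 986 and 40 counts. Replicate 1 was far the higher library, by 18.5-fold after scaling (95% interval 13.5 to 26.1). Klf4, its paralog, differed little, so that Klf4 over Klf5 was 2.29 in replicate 1 and 55.4 in replicate 2. The share of Klf5 in the family was 4.52% and 0.179%, and its rank was 9 and 14 of 17. In replicate 1 Klf5 was thus above 1 TPM beside glandular epithelium markers at 734 TPM, uterus markers at 621 TPM and smooth muscle markers at 5420 TPM, and in replicate 2 it was below 1 TPM beside 13.8, 19.8 and 657 TPM. The part of these cells in the Klf5 level was not tested. The deposited Klf5 model was 1721 bases long, against 3352 for the same transcript in GENCODE M21.

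Of 12 other Krüppel-like genes compared, 2 were called higher in replicate 2 and 0 in replicate 1. Klf6 was at 17.3 and 23.9 TPM. Klf14, a gene known for expression in fat, was at 0.15 and 2.32 TPM, from 16 and 291 counts. This balance depended on the scaling: with total count 1 was higher in replicate 2 and 3 in replicate 1, and with the spike-ins 1 and 2. The median log2 ratio of the list was 0.42 with TMM, -0.10 with total count and -0.04 with the spike-ins. Klf9 (49.8 and 45.9 TPM), Klf3 (45.6 and 34.2 TPM) and Klf13 (39.95 and 35.8 TPM) were the most abundant, all under Klf15 in both libraries, and Klf17 was at 0 in both.

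Ebf1 and Zfp423 encode factors of the committed precursor that meet in the same pathway, since ZFP423 binds EBF proteins. Ebf1 (chr11:44617317-45008091, a gene of 390775 bases) was at 38.8 TPM in replicate 1 and 70.9 TPM in replicate 2, from 5388 and 11459 counts. Zfp423 (chr8:87661810-87959595, 297786 bases) was at 27.3 and 48.8 TPM, from 4302 and 8620 counts. Both were higher in replicate 2, with scaled ratios of 2.83 (2.74 to 2.93) and 2.67 (2.57 to 2.77), the highest of the 10 members under TMM. Ebf1 over Zfp423 was nearly level between the libraries, at 1.42 and 1.45, with a change of the count ratio by 1.06 (interval 1.01 to 1.11). Progenitor and fibroblast markers did not share this direction: their sum was 2841 and 1523 TPM, and of 9 compared 1 was called higher in replicate 2 and 2 in replicate 1 (0 and 3 with total count or the spike-ins).

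EBF1 is also a factor of B cells. Of 7 B cell markers, 4 reached 1 TPM in both libraries. Ighm took 85.6 and 867 TPM of the list's sum, while Ms4a1 was at 0.09 and 0.25 TPM and Pax5 at 0.25 and 0.13 TPM. Both of these defining genes lay under 1 TPM in both libraries, where Ebf1 was at 38.8 and 70.9 TPM. Within its own family Ebf1 held 59.9% and 76.8% of the summed TPM. Ebf2 (4.82 and 8.95 TPM) and Ebf3 (5.54 and 11.7 TPM) were over 2-fold higher in replicate 2, and Ebf1 over Ebf2 was 8.05 and 7.92. Ebf4 was higher in replicate 1, at 15.6 TPM in replicate 1 and 0.77 TPM in replicate 2, and made up 24.1% and 0.834% of the family. Zfp521, the paralog that opposes ZFP423 in precursors, was at 14.1 and 6.67 TPM and was not called apart; Zfp423 over Zfp521 was 1.93 in replicate 1 and 7.31 in replicate 2, with a change of the count ratio by 3.62 (3.38 to 3.87). Of the 7 genes in the list of EBF and zinc finger partners, 2 were called higher in replicate 2 and 1 in replicate 1, all of them EBF genes. Ehmt1 (78.6 and 42.9 TPM), a histone methyltransferase, and Zfp467 (41.1 and 32.0 TPM) were its most abundant members beside Zfp521.

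Stat5a (chr11:100859351-100885169) was at 37.8 TPM in replicate 1 and 46.8 TPM in replicate 2, from 4351 and 6482 counts. Replicate 2 was somewhat higher, and the scaled ratio of 1.98 (1.91 to 2.06) crossed the 2-fold bound only with its upper limit, so Stat5a was not called. Its neighbour and paralog Stat5b was at 34.8 and 26.1 TPM. Stat5a over Stat5b was therefore 1.09 in replicate 1 and 1.80 in replicate 2, and Stat5a held 52.1% and 64.2% of the TPM of the pair. These values rest on how reads were divided between the paralogs. Of 3663 windows of 76 bases, the read length, in the main transcript Stat5a-202, 381 (10.4%) also occur in Stat5b, where the leading transcripts of the other 9 members share none with another gene. The longest identical coding stretch was 324 bases, from coding base 571 to 894 of Stat5a. Its first 76 bases (571 to 646), from chromosome 11, show what a read from either gene would contain.
Stat5a and Stat5b, shared coding bases: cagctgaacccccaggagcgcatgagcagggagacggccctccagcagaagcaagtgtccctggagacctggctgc
An exon of Stat5a also overlaps the span of Stat3 on the opposite strand, which had 18792 and 12309 counts. Whether it overlaps an exon of Stat3 was not examined.

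STAT5 acts below receptors that signal through JAK kinases. Of 8 such input genes, 5 were called higher in replicate 2 and 0 in replicate 1. The log2 ratio had a median of 1.24. Ghr, the growth hormone receptor, was at 136 and 398 TPM and was the most abundant. Csf2rb, a cytokine receptor chain with a near-identical copy in the mouse that makes its count uncertain, was at 19.1 and 29.7 TPM. Epor, the erythropoietin receptor, was at 5.35 and 15.6 TPM, Prlr, the prolactin receptor, at 2.47 and 5.06 TPM, and the kinase gene Jak3 at 24.5 and 35.5 TPM. With total count or spike-in scaling 2 were higher in replicate 2 and 1 was higher in replicate 1. Jak1 (69.1 and 42.6 TPM) was not apart, and Jak2, the kinase of the growth hormone receptor, was lower in replicate 2 at 16.8 and 5.64 TPM without passing the bound. Known STAT5 target genes were counted together, with Bcl6, which STAT5 lowers, in the same list, so the counts and median mix directions of action. Of 7 compared, 1 was higher in replicate 2 and 3 were higher in replicate 1, and the log2 ratio had a median of -1.05; with total count or the spike-ins 4 were higher in replicate 1. The 3 encode feedback inhibitors of cytokine signalling: Cish was at 27.8 and 4.35 TPM, Socs1 at 32.5 and 3.64 TPM and Socs2 at 43.1 and 7.08 TPM. Bcl6, a repressor that STAT5 is known to lower, was at 14.7 and 80.3 TPM. Igf1, the growth hormone target of highest level, was at 310 and 239 TPM. Of 5 other STAT genes compared, 0 were over 2-fold apart; Stat3 (138 and 75.4 TPM) and Stat6 (91.1 and 97.7 TPM) were above Stat5a in both libraries.

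Transcript use was taken from the deposited percent of each gene's TPM by transcript. Cebpa, Cebpb, Cebpd and Klf5 had 1 transcript each. In Ebf1, Ebf1-202 held 58.4% and 59.7% and Ebf1-201 held 25.0% and 23.6%; both begin at the same base, 44617317. Use differed by 1.30 and -1.36 percentage points between the libraries (replicate 2 minus replicate 1), while the gene's level differed 2.83-fold. In Zfp423 the transcripts differed by start site. Zfp423-203, from the internal start whose sequence is shown, had 2473 and 5026 counts, and Zfp423-201, from a start at 87895735, had 1522 and 3330 counts. Zfp423-202, from the upstream start, had 305 and 244 counts and took 6.33% and 2.42% of the gene. The higher level in replicate 2 was thus carried by the transcripts of the other starts, which held 58.5% and 56.7% (Zfp423-203) and 34.5% and 36.0% (Zfp423-201).

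Of the 6 members with several transcripts, Klf4 differed most in their use. Klf4-201 held 87.3% in replicate 1 and 73.0% in replicate 2, and Klf4-202, a model of 522 bases, held 11.6% and 26.4%. The percent is per length, and Klf4-202 rests on only 53.4 and 117 counts, against 3678 and 3010 for Klf4-201. Klf15-201 held 99.9% and 98.3%, and Klf15-202, from a start further into the gene at 90465304, had 6.11 and 123 counts, or 0.13% and 1.72%. Cebpg-202 held 78.0% and 74.7% and Cebpg-201 the other 22.02% and 25.3%. Stat5a-202 held 76.2% and 79.7%, and Stat5a-206, a model of 617 bases with 64.1 and 79.7 counts, held 11.2% and 9.68%.

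**Figure D4:**
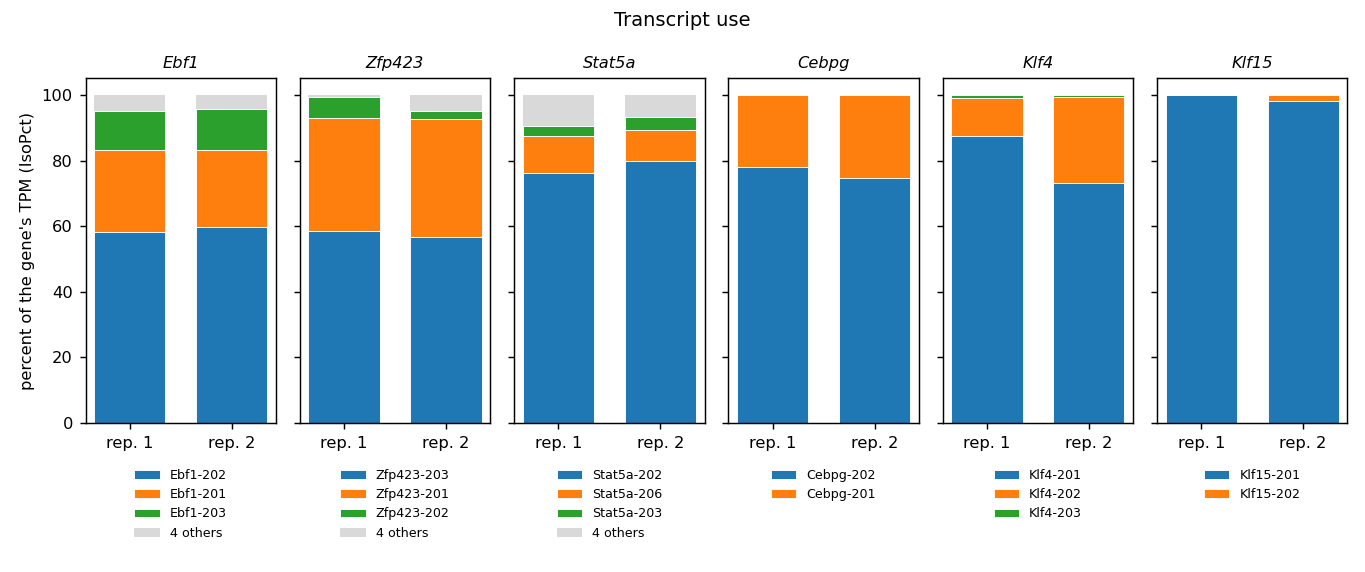
Percent of each gene's TPM held by its annotated transcripts, 1 stacked bar per library, for the 6 factors with more than 1 transcript. The bars of Ebf1 look alike in both libraries, Klf4-202 takes a larger part in replicate 2 (26.4%, against 11.6%), and Zfp423-202 a smaller one (2.42%, against 6.33%).

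The genes around these factors were described by the same counts. Of 10 adipogenic coregulators and early inducers, 2 were called higher in replicate 2, Pparg and Nr3c1, the glucocorticoid receptor (21.2 and 26.8 TPM), and 1 was higher in replicate 1, the histone acetyltransferase Crebbp (29.0 and 8.94 TPM). With total count and with the spike-ins the counts were the other way round, 1 higher in replicate 2 and 2 in replicate 1, and the median log2 ratio was -0.31 and -0.25, against 0.20 with TMM. Srebf1, a factor of lipid synthesis, was the most abundant at 339 and 272 TPM, above Cebpa in replicate 1 and below it in replicate 2. Rxra, the partner of PPARγ, was at 68.2 and 90.2 TPM. Of 12 inhibitors of adipogenesis compared, 1 was higher in replicate 2 and 5 were higher in replicate 1, and the log2 ratio had a median of -0.43. The 5 were Gata2 (98.2 and 8.09 TPM), Id2 (113 and 14.5 TPM), Twist2 (188 and 18.2 TPM), Nr2f2 (120 and 32.1 TPM) and Sox9 (4.75 and 0.98 TPM), and the 1 was Wnt10b (1.24 and 2.10 TPM), which was not called with total count or the spike-ins. The Id genes, whose products block basic helix-loop-helix factors, led the list with Id3 (268 and 199.8 TPM) and Id1 (249 and 120 TPM). Smooth muscle, glandular epithelium and uterus markers were higher in replicate 1 along with these 5 genes, and their part in that difference was not tested.

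Targets of terminal differentiation, genes that C/EBPα and PPARγ are known to act on, were mostly higher in replicate 2. Of 18, 16 were called higher in replicate 2 and 0 in replicate 1. The median of their log2 ratios was 1.94, above the 0.93 of the 10 factors. With total count scaling 12 of 18 were still called higher, where 0 of the factors were. Cfd was at 12566 and 16533 TPM, Scd1 at 5915 and 9470 TPM and Fabp4 at 1890 and 6723 TPM. The list shares genes with the white adipocyte markers, so the lists are not independent. Immediate early genes, which respond within minutes to signals and handling as Cebpb, Cebpd and Klf4 can, had a median log2 ratio of 0.07. Of 12 compared, 3 were higher in replicate 2, Dusp1 (46.1 and 138 TPM), Zfp36 (43.3 and 89.0 TPM) and Fos (7.52 and 13.3 TPM), and 1 was higher in replicate 1, Jund (212 and 55.01 TPM). Jun was at 60.7 and 27.0 TPM. With total count 2 were higher in replicate 2 and 4 in replicate 1, with the spike-ins 2 and 1, and the median log2 ratio was -0.44 and -0.38.

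**Figure D5:**
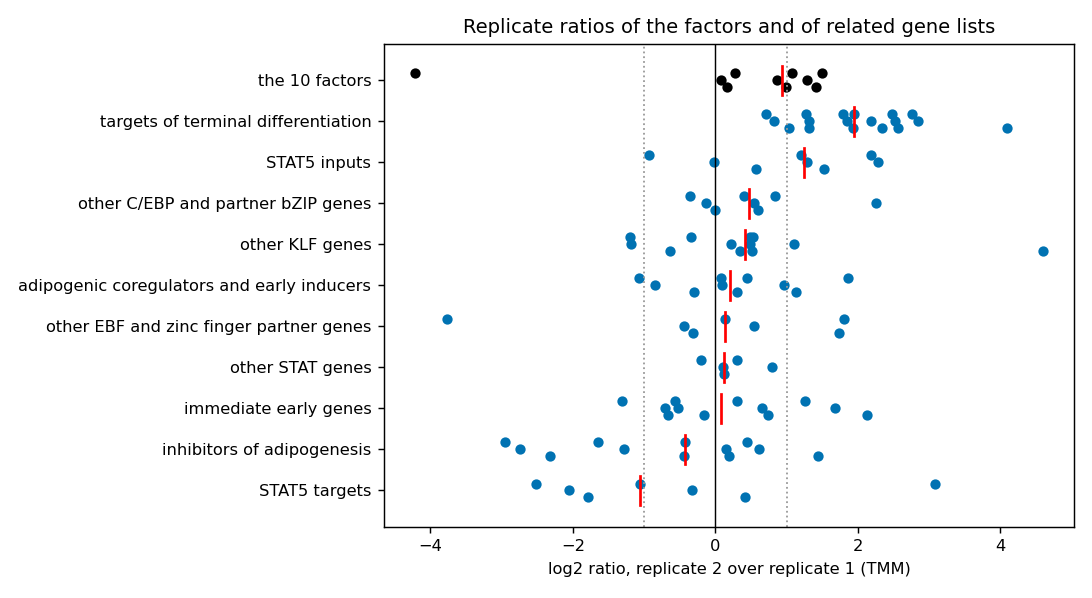
Log2 ratio of replicate 2 over replicate 1 with TMM scaling for the 10 factors (black) and for each gene compared in the related lists (blue), with the median of each list as a red bar and dotted lines at 2-fold. The median is 0.93 for the factors, 1.94 for the targets of terminal differentiation and -1.05 for the STAT5 targets.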

How the data were processed

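PolyA RNA of 1 group, 2 libraries of mouse subcutaneous fat, was measured. Notes that accompany the tables name alignment to transcripts of build mm10 with GENCODE M4; the counting program is not given in any source used here, and the columns are those RSEM writes. The deposited tables give an expected count per gene and transcript, for which the authors' program divided reads shared between features. They also give deposited TPM, relative to all features with spike-ins included, deposited FPKM, used only as an alternative, and, per the file headers, a percent of the gene's TPM for each transcript. A further 26248 tRNA features had a count of 0. Deposited tables on build mm9, which cover both libraries together, were not used here.

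Symbols were matched for 42462 of 43346 genes; coordinates and transcript names are from GENCODE M21 (GRCm38, the same build as mm10). After rounding the expected counts to whole numbers, TMM factors (edgeR 4.0.16, R 4.3.3) over annotated genes without spike-ins were 1.20 and 0.837. Ratios carry exact Clopper-Pearson 95% intervals (scipy 1.17.1); a change of a ratio between a pair of genes carries a normal interval on the log scale. Both cover counting error only. The scripts were tested on simulated data. With 1 library on each side, no p-value was computed.

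The text names all members, the 3 list genes of highest mean TPM, list genes behind counts of 5 or fewer, 3 genes per marker list and the 2 leading transcripts of each member; other genes and transcripts were chosen after their values were seen. Some genes that this rule names are left out of the text. The members and lists were chosen with earlier results of these data known. Alternatives covered TPM thresholds, TPM rescaled without the mitochondrial genome, family shares by expected count, FPKM, posterior mean values, DESeq2 1.42.0, total count and spike-in scaling, a count minimum of 10 and a 1.5-fold bound.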

Additional observations from a re-analysis of the deposited data

How the results depend on the processing

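With total count and with ERCC spike-in scaling, 1 member was over 2-fold apart (5 with TMM) and 0 were higher in replicate 2 (4 with TMM), and the median log2 ratio was 0.42 and 0.47. With deposited TPM without scaling, an alternative chosen after seeing the data, 1 was apart and 0 were higher in replicate 2; the median log2 ratio was 0.29 with a pseudocount of 0.1 and 0.28 with 1. The 1 gene was Klf5 each time. For unscaled TPM the share called over all genes was not computed. DESeq2 size factors and a count minimum of 10 gave the same 4 and 1 genes. Over all genes compared, DESeq2 called 10.6% higher in replicate 2 and 12.5% in replicate 1, and the count minimum of 10 called 9.96% and 14.3%. A 1.5-fold bound added Cebpg and Stat5a. With that bound, 20.3% of all genes compared were called higher in replicate 2 and 19.5% in replicate 1. The number of members at the TPM threshold in both libraries was 10 at 0.1 TPM, 9 at 5 TPM and 9 at an FPKM of 1. Without replicate 1 it was 9 and without replicate 2 it was 10. The share over all genes was computed only for 1 TPM in both libraries. Rescaled to annotated genes outside the mitochondrial genome, the mean level moved by more than its SD (n = 2) for Cebpg (10.8 TPM), Klf4 (42.6 TPM) and Stat5a (49.9 TPM). Family shares by expected count, which is not per length, averaged 4.39% for Cebpd (9.04% by TPM), 3.72% for Cebpg (2.11%), 8.29% for Klf4 (10.1%) and 47.9% for Stat5a (58.2%). No paired analysis was possible because the series holds a single group. Depth limits Klf5 in replicate 2 and the minor transcripts named with their counts; the other members have 1122 counts or more in each library.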
